A study of Homo sapiens with 15 samples.

Results

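The genes described here are the human replication-dependent histone genes: the core histone genes of classes H2A, H2B, H3 and H4 and the linker histone genes H1-1 to H1-6. They were chosen by symbol, with histone pseudogenes left out, and gave 69 of the 60675 genes in the deposited count table. Of these, 6 encode H1, 17 H2A, 18 H2B, 13 H3 and 15 H4, and 55 lie on chromosome 6, 13 on chromosome 1 and 1 on chromosome 12. The cells were H9, an established human embryonic stem cell line, taken through the first 7 days of osteogenic differentiation: serum medium without inducers, to which vitamin D3, β-glycerophosphate and ascorbic acid were added from day 5. Fine particulate matter (FPM) was present throughout at 0.00062 µg/mL (FPM_IC25) or 1.4 µg/mL (FPM_IC50), and the standard reference particles of NIST (SRM) at 0.003 µg/mL (SRM_IC25) or 5.9 µg/mL (SRM_IC50). The vehicle control (UNT) received DMSO at 0.1%. Each of the 5 groups has 3 RNA-seq libraries, and the labels name the concentrations after the inhibitory level they give for each particle. All libraries come from 1 cell line, and the labels do not say that the 3 libraries of a group are separate cultures, so every p-value measures the spread between these libraries only, which may be technical.

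Replication-dependent histone genes supply the bulk of new nucleosomes when DNA is copied. Their transcription is driven by NPAT at histone locus bodies, and their mRNAs end in a conserved stem-loop bound by SLBP instead of in a poly(A) tail. Some of these genes also make longer, polyadenylated transcripts, above all in cells that leave the cycle. The libraries were made from RNA bound by a poly(A) capture kit, per the labels' protocols, so the values below measure whichever histone transcripts passed that step and not the whole histone mRNA pool.

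The stem-loop is shown first because it is the feature that separates these mRNAs from others. A stem of 6 base pairs around a loop of 4 bases was found in a GENCODE 29 transcript model of 30 of the 69 genes. The other 39 gave no match. The search also required 5 bases of the model on each side, so a model that ends sooner gives none. A missing match therefore describes the models and not the genes. In the lines that follow, capitals mark the stem-loop and lower case the 5 bases on each side, read 5′ to 3′ on the gene's own strand.
H4C9: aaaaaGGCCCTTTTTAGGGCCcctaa
H4C11: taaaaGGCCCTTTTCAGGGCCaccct
H2AC25: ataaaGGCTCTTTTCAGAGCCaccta
H2BC21: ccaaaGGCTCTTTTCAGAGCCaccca
H2BC5: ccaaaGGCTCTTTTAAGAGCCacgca
H3C6: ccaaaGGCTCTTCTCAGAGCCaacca
The form of H2AC25 and H2BC21 was the most frequent, with 6 H2A, 8 H2B and 3 H3 genes. That of H2BC5 was shared by 3 H2B genes and H3C8, and that of H3C6 was found in no other member. H4 genes had a different stem: 5 carried the form of H4C11 and 3 that of H4C9. In 22 of the 30 genes the model ran on for 100 bases or more past the stem-loop. The usual poly(A) signals are AATAAA and ATTAAA. In 17 of those 22 genes a transcript model, not necessarily the same one, held either in its last 50 bases. H2BC21 ran on for 1729 bases and H2AC25 for 390, both with a signal in a model of the gene, and H4C9 for 212 bases without one in any model.

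Promoters were compared over RefSeq windows (GRCh38.p14) of 250 bases before to 50 after the start, available for 64 of the 69 genes and searched on both strands. A TATA box (TATAAA) was found in 43 of the 64, or 67.2%, against 11.5% of all 35116 windows. A CCAAT box (CCAAT) was found in 84.4%, against 34.6% of all windows. It was present in every H1, H2A, H2B and H3 window matched but in 3 of 13 H4 windows. The octamer ATTTGCAT, the site read by POU2F1 in H2B promoters, was found in 14 of 18 H2B and 11 of 16 H2A windows and in no H1 or H4 window, against 1.77% of all windows. The 150 bases before the start are printed for 2 H2B genes that the comparisons below turn on, with CCAAT, octamer and TATA matches in capitals (ATTGG is CCAAT on the other strand): H2BC12, minus strand, chr6:27146859-27147008, and H2BC21, minus strand, chr1:149886683-149886832.
H2BC12: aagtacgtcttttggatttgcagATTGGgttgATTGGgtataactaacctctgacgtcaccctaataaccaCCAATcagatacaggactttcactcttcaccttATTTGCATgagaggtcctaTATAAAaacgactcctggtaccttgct
H2BC21: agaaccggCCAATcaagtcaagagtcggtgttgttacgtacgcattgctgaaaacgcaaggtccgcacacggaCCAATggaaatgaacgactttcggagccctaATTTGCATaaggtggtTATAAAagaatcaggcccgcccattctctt
Both promoters held all 3 motifs. The same stretch of H4C9 held a single CCAAT box and neither of the other motifs; it ends at the RefSeq start, 27139282, and so lies inside the GENCODE 29 model, which begins at 27138588.

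Histone transcripts were scarce in every library. The 69 genes together took between 0.00395% and 0.00915% of the counts of a library, at totals of 9.34 to 58.2 M counts (M, mega). H2AC1, H2AC7, H2BC1 and H3C4 (4 members) were at 0 in all 15 libraries, where 3 counts correspond to 0.0504 to 0.309 CPM (counts put on a common library size with TMM). H2AC7 and H3C4 overlap another gene on their own strand in the annotation. After the filter on low counts, 30 of the 69 were tested: 4 H1, 6 H2A, 8 H2B, 5 H3 and 7 H4 genes. The 39 others had between 0 and 127 counts over all libraries, and for the near-identical pairs H2AC18 and H2AC19, H3C14 and H3C15, and H4C14 and H4C15 the counts of each copy are uncertain. None of these 6 genes was among the 30.

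In the vehicle control, 4 genes stood above the rest per length. In FPKM (the authors' counts scaled to gene length and library total), H2BC12 had 9.41, 9.50 and 13.2, a mean of 10.7 ± 2.17 (SD, n = 3). The linker histone gene H1-2 averaged 9.35 ± 3.05, H2AC25 7.2 ± 1.15 and H4C3 6.67 ± 3.21 FPKM (SD, n = 3 each). The ranges of these 4 overlapped one another in order, so their ranking is not resolved, while the lowest H4C3 library, at 4.69, lay above the highest H2AC20 library, at 3.56. Below that, each gene's libraries overlapped those of the next gene in the order. H2AC20, H2BC5, H2AC6 and H2BC9 followed with means of 2.74, 2.04, 1.86 and 1.77 FPKM. The order in FPKM rests on the deposited gene lengths, such as 381 bases for H2BC12 and 435 for H4C3, against 2060 for H2BC9. Without scaling to length, H2BC9 had 2.64, 3.47 and 5.24 CPM in UNT, and H4C3 2.04, 2.23 and 4.76. H2BC12 and H1-2 also overlapped H2BC9 in CPM, while H2AC25, at 5.77, 6.17 and 8.05, lay above it. Among H4 genes, H4C11 averaged 1.46 ± 0.897 and H4C4 1.00 ± 0.59 FPKM. No H3 gene was high: H3C2, the leading one, was listed at 1.21, 0 and 2.53 FPKM in the 3 UNT libraries, and H3C10 and H3C7 averaged 0.876 ± 0.337 and 0.614 ± 0.175. Among H1 genes, H1-5 and H1-3 averaged 1.07 ± 0.478 and 0.69 ± 0.173 FPKM, well under H1-2.

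**Figure D1:**
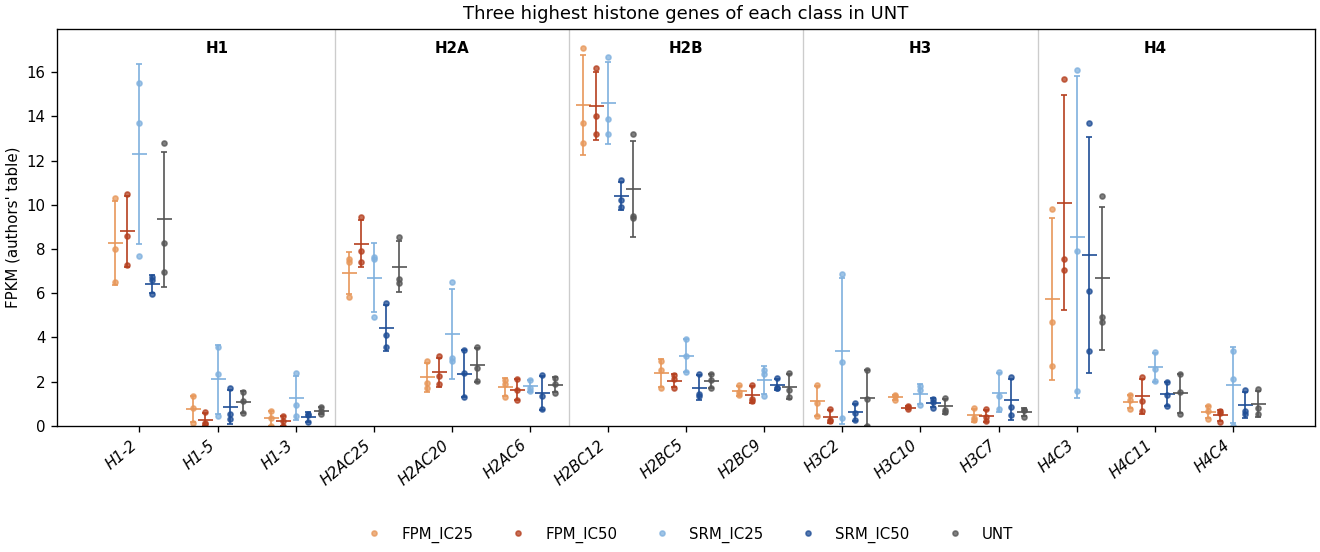
FPKM (linear axis) of the 3 genes of each histone class that were highest in UNT; points are libraries, horizontal marks and bars the mean ± SD of 3 libraries, colours the groups. H2BC12, H1-2, H2AC25 and H4C3 stand above the other 11, and the libraries of H4C3 spread from 1.57 to 16.1 FPKM.

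The summed level of histone transcripts varied widely within groups. It was 47.9, 44.3 and 60 CPM at FPM_IC25 and 45.2, 44.4 and 55.8 at FPM_IC50. The sum was 43.2, 77.7 and 93.6 CPM at SRM_IC25 and 39.5, 39.4 and 62.0 at SRM_IC50, against 45.6, 44.7 and 68.4 in UNT. The library numbered 3 was the highest in every group, and SRM_IC25 replicates 2 and 3 were the highest of all 15. H4C3 had 1.13, 2.00 and 4.18 CPM at FPM_IC25, 2.92, 3.17 and 6.79 at FPM_IC50, 0.681, 3.56 and 7.17 at SRM_IC25 and 1.46, 2.65 and 6.33 at SRM_IC50, against 2.04, 2.23 and 4.76 in UNT. It was highest in the library numbered 3 in all 5 groups, and the groups overlapped throughout.

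RNAs that carry no poly(A) tail were also highest in SRM_IC25 replicates 2 and 3. A list of 16 such genes (snRNAs, snoRNAs, RMRP, RN7SK and the like, 5 of them at 0 throughout) summed to 11.4, 3.0 and 18.7 CPM at FPM_IC25 and 2.9, 3.2 and 2.7 at FPM_IC50. It summed to 11.4, 35.3 and 37.7 CPM at SRM_IC25 and 4.8, 3.0 and 8.5 at SRM_IC50, against 6.4, 6.5 and 13.8 in UNT. At FPM_IC50 the sums of these RNAs, at 2.9, 3.2 and 2.7 CPM, lay too close together to rank the replicates. The histone sum there was highest in replicate 3. The 39 histone genes under the filter summed to 4.6, 10.8 and 14.2 CPM at SRM_IC25, against 5.4, 3.2 and 7.7 in UNT, and were highest in the same 2 libraries. A list of 17 histone genes with polyadenylated transcripts described in differentiated cells, from background knowledge, summed to 24.3, 37.7 and 39.7 CPM at SRM_IC25, against 21.5, 24.8 and 33.4 in UNT. The 52 other members summed to 18.9, 40 and 53.9 CPM at SRM_IC25, against 24.1, 19.9 and 35.1 in UNT. How much of the histone level follows from carry-over of RNA without a tail was not tested.

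**Figure D2:**
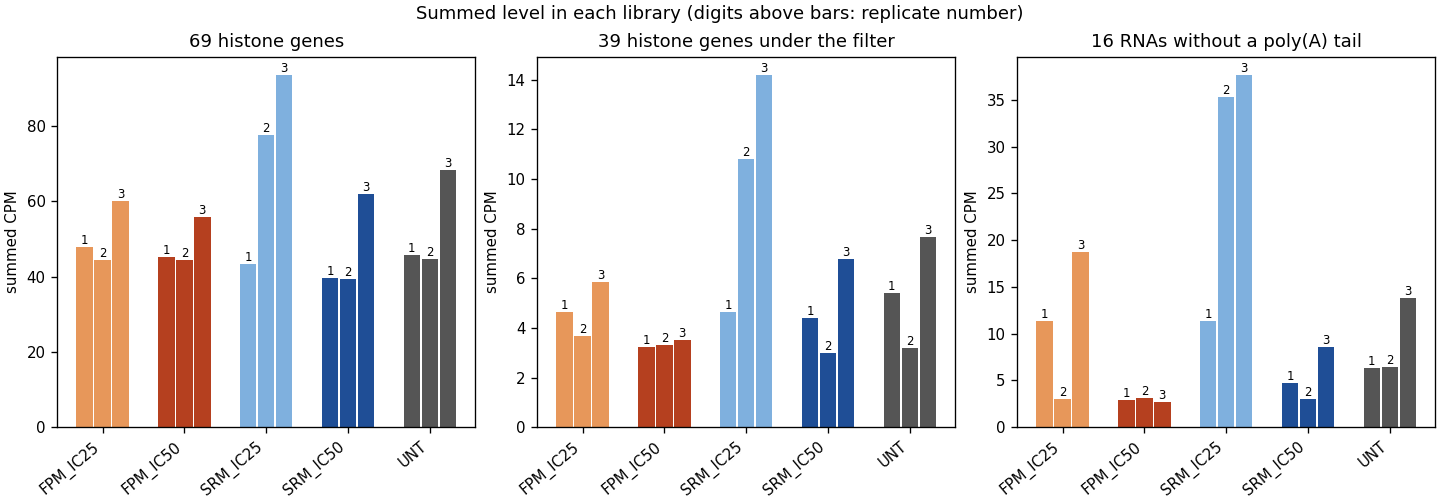
Summed CPM (linear axes from 0) in each library of the 69 histone genes, of the 39 of them under the filter, and of 16 RNAs without a poly(A) tail; bars are single libraries, with the replicate number above. SRM_IC25 replicates 2 and 3 are highest in all 3 panels, at 77.7 and 93.6, 10.8 and 14.2, and 35.3 and 37.7 CPM.

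At FPM_IC25, 1 of the 30 tested histone genes was higher than in UNT and none was lower by edgeR's quasi-likelihood test (adjusted p under 0.05 over 19012 genes). Over all genes tested 14.2% were called in this comparison, 10.7% higher and 3.51% lower. The gene was H4C9 (ENSG00000276180), 1 of the genes that encode the core histone H4, at 27138588 to 27139881 on the plus strand of chromosome 6 (GRCh38). H4C9 had 1.95, 1.67 and 1.56 CPM at FPM_IC25, against 0.299, 0.470 and 0.610 in UNT. All 3 exposed libraries lay above all 3 controls. This is a log2 fold change of 1.89, with an SE of 0.34 and an adjusted p of 0.000624. The median over the 30 genes was -0.06, against -0.00 over all genes, with 13 positive and 17 negative values. No other member had an unadjusted p under 0.05, and the groups of 4 members did not overlap, or 13.3% of those tested, where 31.4% of all genes did not.

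At FPM_IC50, 1 member was higher and 1 lower than in UNT, where 13.6% of all genes were called, 10.8% higher and 2.77% lower. H4C9 was again the higher one, with 1.36, 1.59 and 1.63 CPM, all above the UNT libraries, and 1.75 on the log2 scale above them (edgeR, SE 0.36, adjusted p = 0.00211). It averaged under 1 CPM over these libraries and controls together and is named here because its values were seen. The lower one was H2AC11 (ENSG00000196787), an H2A gene that lies upstream of H4C9 on the same strand at 27133042 to 27135291. H2AC11 had 1.17, 1.04 and 1.09 CPM at FPM_IC50, against 2.09, 1.88 and 2.26 in UNT, with no overlap. The difference was -0.93 on the log2 scale, with an SE of 0.23 and an adjusted p of 0.00945. Without FPM_IC50 replicate 2 the call of H2AC11 was lost, which left 1 member called. At FPM_IC25 its 3 libraries, at 1.65, 1.81 and 1.66 CPM, also lay below the controls, but that log2 difference of -0.28 did not pass (adjusted p = 0.414). The median over the 30 genes was -0.20, against 0.01 over all genes. Groups of 5 members, 16.7% of those tested, did not overlap, where 26.0% of all genes did not. The lowest value, -2.83, was that of H4C2, whose groups overlapped (adjusted p = 0.27).

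The models around H4C9 bear on how its counts can be read. GENCODE 29 draws H2BC12, which had the highest mean FPKM of the members in UNT, as a single exon of 381 bases on the minus strand at 27146418 to 27146798, some distance from H4C9. RefSeq draws H2BC12 from 27138293 to 27146858, so that it spans the whole of H4C9 on the opposite strand. H2BC12 itself had 6.28, 4.78 and 5.11 CPM at FPM_IC25 and 4.77, 5.15 and 6.16 at FPM_IC50, against 3.58, 3.76 and 5.31 in UNT; its log2 fold changes of 0.33 and 0.35 did not pass (adjusted p = 0.269 and 0.276). Genes annotated as antisense took 0.942% to 1.5% of counts in the 6 FPM libraries, against 0.274% to 0.319% in the other 9. The kit marks strand, but the strand setting of the authors' counting is not given in the sources used here. The part of minus-strand reads in the H4C9 counts was not tested.

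**Figure D3:**
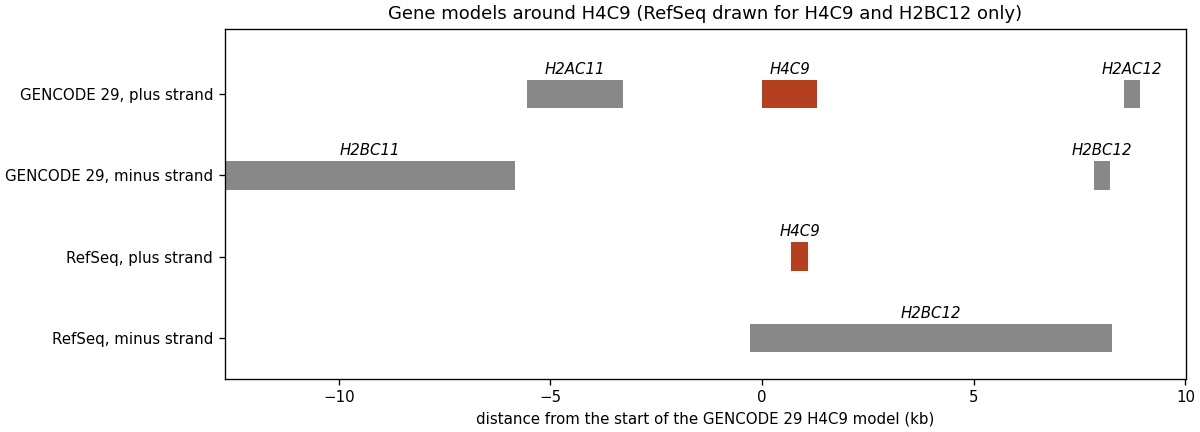
Gene models around H4C9, by distance in kb from the start of its GENCODE 29 model (linear axis), with plus and minus strands of each annotation on their own lines; RefSeq is drawn for H4C9 and H2BC12 only. The RefSeq model of H2BC12 covers H4C9 on the opposite strand, whereas the GENCODE 29 model of 381 bases does not reach it.

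H4C9 lay above the UNT libraries in 4 of the 6 SRM libraries, and neither SRM dose passed the test. It had 0.605, 1.13 and 1.39 CPM at SRM_IC25 and 0.949, 0.458 and 0.703 at SRM_IC50. The first of these SRM_IC25 values lies inside the UNT range of 0.299 to 0.610, and SRM_IC50 overlaps it too. The log2 fold changes against UNT were 1.24 (adjusted p = 0.0575) and 0.68 (adjusted p = 0.273).

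SRM_IC25 against UNT gave no called member, where 4.37% of all genes were called, 0.989% higher and 3.38% lower. By the same edgeR test 7 members had an unadjusted p under 0.05, and DESeq2, which gave an adjusted p for 5 of the 30, called none. Of the 30 genes, 26 had a positive log2 fold change, and the median was 0.60, against 0.02 over all genes. The class medians were 0.92 for H1, 0.26 for H2A, 0.46 for H2B, 0.75 for H3 and 0.87 for H4. The highest value, 1.45, was that of H3C2, which had 0.151, 1.23 and 2.89 CPM at SRM_IC25, against 0.498, 0 and 1.1 in UNT. These overlap, and the difference did not pass (adjusted p = 0.284). Without SRM_IC25 replicate 1, the shallower library with the lower histone sum, 1 member was called higher, H4C9 at a log2 fold change of 1.44 (adjusted p = 0.0466), and the median was 0.95; without replicate 3 it was 0.34. The groups of 1 member, 3.33% of those tested, did not overlap, where 25.6% of all genes did not.

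At SRM_IC50, 1 member was lower than in UNT and none was higher, where 17.6% of all genes were called, 7.96% higher and 9.59% lower. This was H2AC25 (ENSG00000181218), an H2A gene on chromosome 1 at 228456979 to 228457873, minus strand. H2AC25 had 3.15, 3.66 and 5.28 CPM at SRM_IC50, against 5.77, 6.17 and 8.05 in UNT. The highest exposed library lay just under the lowest control, and edgeR gave a log2 fold change of -0.77, an SE of 0.22 and an adjusted p of 0.0238. Groups of 4 members, 13.3% of those tested, did not overlap, where 29.7% of all genes did not. The call was lost, leaving 0, without UNT replicate 3, SRM_IC50 replicate 1 or SRM_IC50 replicate 2. The median over the 30 genes was -0.09, with 12 positive and 18 negative values, against 0.00 over all genes.

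**Figure D4:**
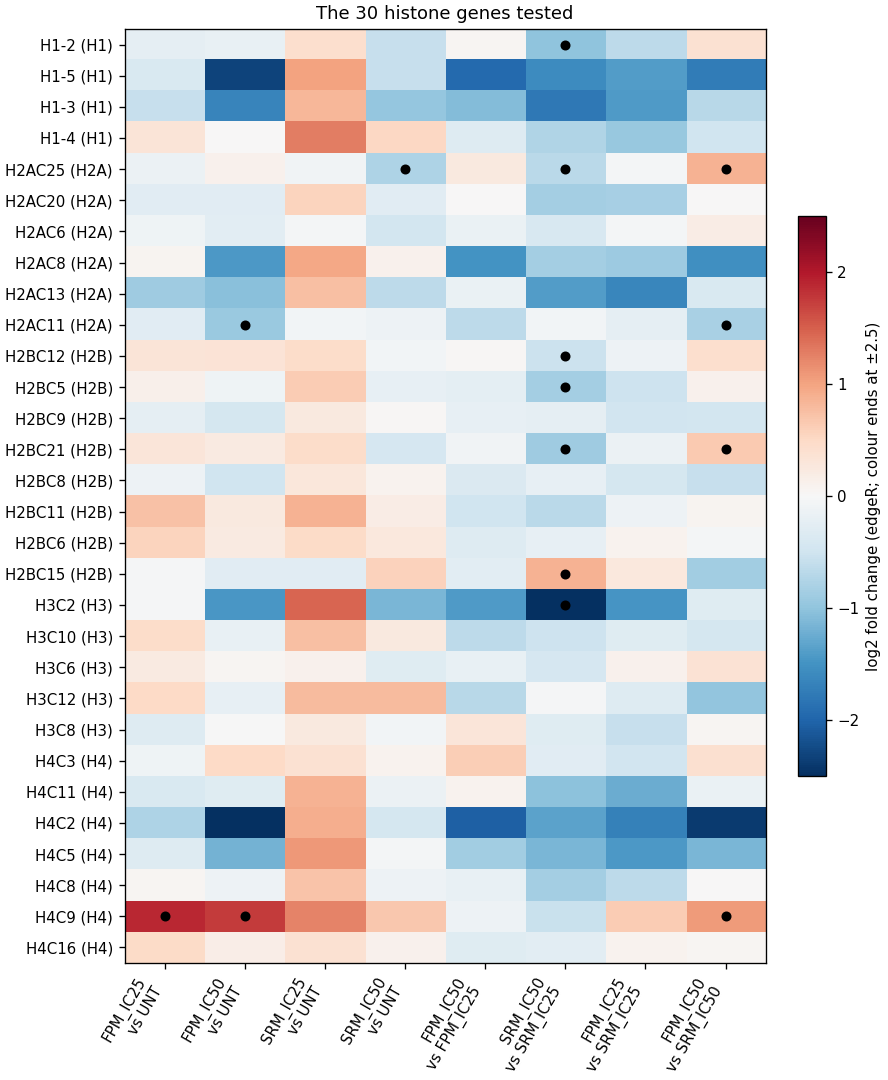
Log2 fold change (colour, edgeR) of the 30 tested histone genes, in rows ordered by class and then by level in UNT, in 8 comparisons; black points mark adjusted p under 0.05. The column of SRM_IC50 against SRM_IC25 holds 7 points, and H4C9 is marked in 3 columns.

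Of the 8 comparisons, that between the SRM doses gave the most called members, but their share of 23.3% lay under the 26.9% of all genes called. At SRM_IC50, 6 members were lower and 1 was higher than at SRM_IC25, where 13.2% of all genes were lower and 13.7% higher. Of the 30 genes, 29 had a negative log2 fold change, with a median of -0.68, against -0.02 over all genes. The class medians were -1.29 for H1, -0.76 for H2A, -0.38 for H2B, -0.42 for H3 and -0.84 for H4. Among the called members at a mean of at least 1 CPM, the 3 with the largest falls were H1-2, H2BC21 and H2BC5.

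H1-2, the leading linker histone gene, had 3.8, 4.22 and 4.57 CPM at SRM_IC50, against 4.92, 10.3 and 8.98 at SRM_IC25. No library of the higher dose reached the lower dose, and the log2 difference was -1.0 (SE 0.28, adjusted p = 0.0135). H2BC21 (ENSG00000184678), an H2B gene on chromosome 1 at 149884459 to 149886652 whose polyadenylated transcripts have been described in differentiated cells, had 1.56, 1.32 and 1.49 CPM at SRM_IC50, against 2.04, 2.53 and 3.50 at SRM_IC25. The groups did not overlap, and the log2 difference was -0.88 (SE 0.20, adjusted p = 0.00459). H2BC5, another H2B gene, had 2.03, 1.27 and 1.23 CPM at SRM_IC50, against 2.12, 2.83 and 3.50 at SRM_IC25. Its groups lay close to each other without overlapping, and their log2 difference was -0.85 (SE 0.26, adjusted p = 0.0237). In all, the groups of 5 members, 16.7% of those tested, did not overlap between these doses, where 37.7% of all genes did not.

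The other 3 called falls were outside that rule and are named because few were called. H2BC12 had 3.86, 3.77 and 4.48 CPM at SRM_IC50, against 4.99, 6.60 and 5.43 at SRM_IC25, and its log2 difference was -0.53 (SE 0.18, adjusted p = 0.0388). H2AC25 differed by -0.68 (SE 0.22, adjusted p = 0.0314), with 4.39, 7.00 and 6.99 CPM at SRM_IC25, the first of which lies inside the SRM_IC50 range. H3C2 had 0.237, 0.102 and 0.440 CPM at SRM_IC50, against 0.151, 1.23 and 2.89 at SRM_IC25, groups that overlap, and differed by -2.59 with a wide error (SE 0.88, adjusted p = 0.0381). The single rise was that of H2BC15, with 0.780, 0.865 and 1.23 CPM at SRM_IC50, against 0.378, 0.506 and 0.603 at SRM_IC25 (log2 fold change 0.86, SE 0.29, adjusted p = 0.0361). H2BC15 was likewise chosen after its values were seen. Its model overlaps exons of H2AC15 on the opposite strand and of H2AC16 on its own, so its counts cannot be assigned to 1 gene with certainty.

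These calls rested on few libraries. Without SRM_IC25 replicate 2 the count fell to 1, H2BC21 (log2 fold change -0.94, adjusted p = 0.0132), and without SRM_IC25 replicate 3 to 3; without SRM_IC50 replicate 1 or replicate 2 it was 4. It was 14, all lower, without SRM_IC25 replicate 1 and 12, all lower, without SRM_IC50 replicate 3. The share of all genes called is not given here for any fit with libraries left out or processing changed. Counts of members from those fits therefore cannot be set beside it. On the 10 libraries left when replicate 3 of every group was taken out, a choice made after seeing the data, 4 members were called, all lower. With the GC offset, centred or not, 3 were called, all lower: H1-2, H2BC21 and H2BC5. RNAs without a poly(A) tail moved the same way between the doses: 5 of the 6 tested were lower at SRM_IC50 and none was higher, with a median log2 fold change of -2.30. In the main fit 13.2% of all genes were lower and 13.7% higher. SNORD3A, which encodes U3 snoRNA, averaged 0.89 ± 0.719 CPM at SRM_IC50 and 4.71 ± 1.39 at SRM_IC25 (SD, n = 3 each; log2 fold change -2.61, adjusted p = 0.00206), and RNU4-1, which encodes U4 snRNA, averaged 0.842 ± 0.977 and 12.1 ± 9.32 (log2 fold change -4.19, adjusted p = 0.00456). Their part in the histone result was not tested.

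**Figure D5:**
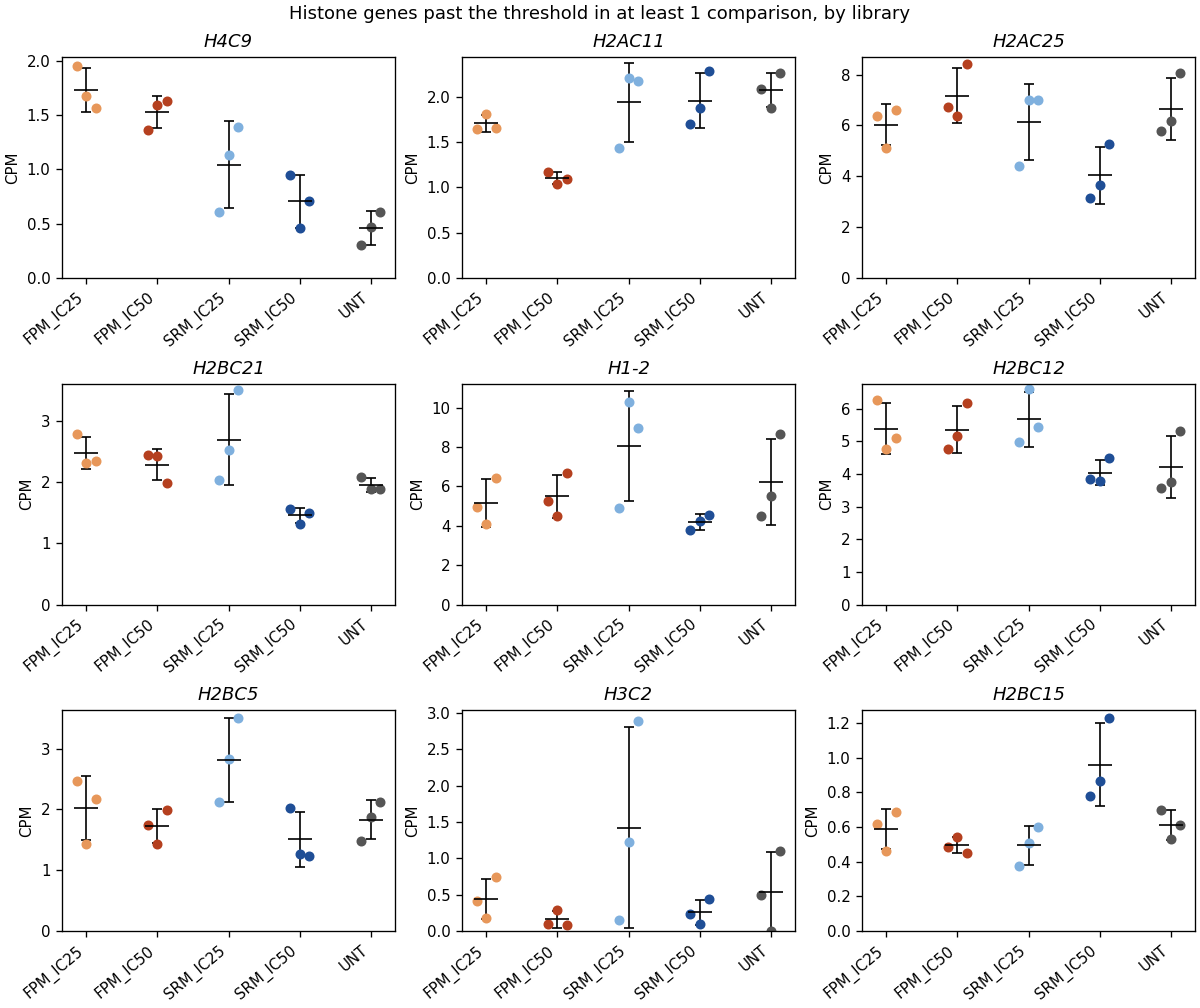
CPM (linear axes from 0) of the 9 histone genes past the threshold in at least 1 comparison; points are libraries in replicate order, horizontal marks and bars the mean ± SD of 3. H4C9 had 1.36 to 1.95 CPM in the 6 FPM libraries, above every UNT library, H2AC11 is lowest at FPM_IC50, at 1.04 to 1.17, and H3C2 has a single high library, at 2.89, in SRM_IC25.

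Between the FPM doses no histone gene was called (FPM_IC50 relative to FPM_IC25), where 0.0105% of all genes were called, and 1 had an unadjusted p under 0.05 by edgeR's test; DESeq2, which gave an adjusted p for 26 of the 30, called none. The median was -0.25, against 0.01 over all genes, with 6 positive and 23 negative values. H2AC11 was lower in every FPM_IC50 library than in any FPM_IC25 library, at 1.04 to 1.17 CPM against 1.65 to 1.81, but its log2 difference of -0.65 did not pass (adjusted p = 0.907). It was 1 of 3 members (10.0% of those tested) whose groups did not overlap, where 8.57% of all genes did not.

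The particles were compared at matched inhibitory levels, not at matched concentrations. At FPM_IC50, 3 members were higher and 1 was lower than at SRM_IC50, where 39.3% of all genes were called, 23.2% higher and 16.2% lower. H2AC25 had 6.72, 6.39 and 8.42 CPM at FPM_IC50, against 3.15, 3.66 and 5.28 at SRM_IC50 (log2 fold change 0.87, SE 0.23, adjusted p = 0.00582). H2BC21 had 2.44, 2.43 and 1.99 CPM at FPM_IC50, against 1.56, 1.32 and 1.49 at SRM_IC50 (log2 fold change 0.65, SE 0.22, adjusted p = 0.0271). H4C9 was higher by 1.07 (SE 0.33, adjusted p = 0.0157) and H2AC11 lower, at a log2 difference of -0.81, with 1.70, 1.88 and 2.29 CPM at SRM_IC50 (SE 0.23, adjusted p = 0.0103). None of these 4 overlapped between the groups, nor did 4 other members, 26.7% of those tested in all, where 46.6% of all genes did not. Without FPM_IC50 replicate 2 the count was 1 and without SRM_IC50 replicate 2 it was 2. The median over the 30 genes was -0.10, against 0.02 over all genes. With an offset for the GC content of each gene, 6 members were called, all lower; H4C9 (log2 fold change 0.64, adjusted p = 0.0972), H2AC25 (0.50, adjusted p = 0.06) and H2BC21 (0.18, adjusted p = 0.473) did not pass, and the median of all genes was -0.38. With that offset centred on 0 in each library, a choice made after seeing this shift, 4 members were higher and 1 was lower, and H4C9, H2AC25, H2BC21 and H2AC11 all passed (adjusted p = 0.0187, 0.00406, 0.043 and 0.00805).

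At FPM_IC25 no member was called against SRM_IC25, where 10.5% of all genes were called, 9.89% higher and 0.605% lower. Of the 30, 8 had an unadjusted p under 0.05 by edgeR's test, and the median was -0.47, with 25 negative values. The groups of 6 members, 20.0% of those tested, did not overlap, where 28.0% of all genes did not. The count changed with the libraries used and with a GC correction, for which the share of all genes called is not given here. It was 6, all lower, without SRM_IC25 replicate 1 and 2, both lower, without FPM_IC25 replicate 3. With the GC offset it was 16, all lower, at a median of all genes of -0.31, and with the centred offset it was 0. The tested members had a median GC content of 49.1%, against 48.5% over all tested genes.

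Of 23 listed genes that transcribe and process histone mRNA, 1 was lower at FPM_IC25 and 1 at FPM_IC50 than in UNT, 2 were lower at SRM_IC25, and none was called at SRM_IC50. Over all genes 14.2%, 13.6%, 4.37% and 17.6% were called in these comparisons. SLBP, the stem-loop binding protein, averaged 94.0 ± 4.74 CPM at FPM_IC25, 90.1 ± 8.82 at FPM_IC50, 97.1 ± 7.89 at SRM_IC25 and 93.3 ± 15.7 at SRM_IC50, against 107.0 ± 15.5 in UNT, and passed in none of the 8 comparisons. NPAT averaged 24.9 to 26.7 CPM over the exposed groups and 28.6 ± 4.6 in UNT. CASP8AP2, the FLASH protein of the processing complex, averaged 48.3 to 53.9 CPM in exposed groups, against 57.6 ± 3.98 in UNT, and LSM11, a subunit of the U7 particle that cuts histone pre-mRNA, 16.5 to 19.1 CPM against 19.5 ± 1.16. None of these 3 passed in any comparison. CPSF3, the nuclease of the cleavage complex, was the gene of the list called against UNT at 3 exposures, with log2 fold changes of -0.36 at FPM_IC25 (adjusted p = 0.00284), -0.41 at FPM_IC50 (adjusted p = 0.00108) and -0.32 at SRM_IC25 (adjusted p = 0.034). At SRM_IC25 the other was ERI1, the exonuclease that trims the stem-loop end (-0.28, adjusted p = 0.0427). Both SRM_IC25 calls were lost in most alternatives: ERI1 passed in 3 of 20 and CPSF3 in 7 of 20. Without any 1 of the 6 SRM_IC25 and UNT libraries ERI1 did not pass, and CPSF3 passed only without UNT replicate 1.

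Between the SRM doses the called genes of this list and of the cell cycle lists were all higher at SRM_IC50. There, 7 of the 23 processing genes were higher than at SRM_IC25 and none was lower, among them CPSF2 (log2 fold change 0.41, adjusted p = 0.00209), POU2F1 (0.40, adjusted p = 0.0169) and CPSF3 (0.36, adjusted p = 0.00269). Of 22 S phase and replication genes 9 were higher and none was lower; CDC6, which loads the replicative helicase, averaged 110.0 ± 4.18 CPM at SRM_IC50 and 75.5 ± 0.5 at SRM_IC25 (log2 fold change 0.54, adjusted p = 2.46e-05). PCNA, the sliding clamp, averaged 333.0 ± 66.2 CPM at SRM_IC50 and 255.0 ± 37.7 at SRM_IC25 and did not pass (adjusted p = 0.069). Of 15 G2 and mitosis genes 7 were higher and none was lower, and MKI67 was not called (0.06, adjusted p = 0.909). Among 20 histone chaperones 8 were higher and none was lower, with ANP32E at 0.50 (adjusted p = 0.000112) and NAP1L1 at 0.43 (adjusted p = 0.025). All of these stand beside a background of 26.9% of genes called, 13.7% higher and 13.2% lower. The medians of the lists were 0.13, 0.20, 0.33 and 0.21, against -0.68 for the 30 histone genes.

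The same lists separated the particles at the higher inhibitory level. At FPM_IC50, 17 of 22 S phase genes were lower than at SRM_IC50 and none was higher, as were 12 of 15 G2 and mitosis genes and 13 of 20 chaperones, where 16.2% of all genes were lower. PCNA fell by 0.61 (adjusted p = 0.00382), AURKB by 0.57 (adjusted p = 0.000619) and NASP, the chaperone that holds soluble H3 and H4, by 0.51 (adjusted p = 5.13e-05) on the log2 scale. Of the 30 histone genes, 1 was lower there. Against UNT the S phase genes gave 6 higher and none lower at SRM_IC50 and at most 1 each way at the other exposures.

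Replication-independent histone variants gave far more counts. The 14 genes of the list summed to 2570 to 3970 CPM in a library, and H3-3B averaged 622.0 to 700.0 CPM over the exposed groups, against 726.0 ± 97.1 in UNT. Of 11 tested, none was called against UNT at any exposure. Over all genes 14.2% were called at FPM_IC25, 13.6% at FPM_IC50, 4.37% at SRM_IC25 and 17.6% at SRM_IC50. H2AJ, an H2A variant, was the single call between the SRM doses, lower at SRM_IC50 with 30.8 ± 10.4 CPM against 54.0 ± 10.7 at SRM_IC25 (log2 fold change -0.84, adjusted p = 0.0109). Between these doses 26.9% of all genes were called. Between the particles at the higher level 3 were lower at FPM_IC50: H2AZ1 (-0.72, adjusted p = 0.00235), CENPA (-0.46, adjusted p = 0.0121) and H2AX (-0.29, adjusted p = 0.0475). None was higher, where 16.2% of all genes were lower and 23.2% higher.

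Cell type markers differed between the SRM doses and between the particles at the higher level as well. At SRM_IC50, 10 of 10 pluripotency markers were higher than at SRM_IC25, with summed levels of 2660 to 3190 CPM against 1380 to 1440. All 10 trophoblast and amnion markers were lower, at 315 to 341 CPM against 1280 to 1510, and none of the 20 was at 0 throughout. Markers of the osteoblast lineage summed to 1630 to 1760 CPM at SRM_IC50 and 1330 to 1570 at SRM_IC25, with 2 of 8 tested higher and 3 lower. Cardiac and lateral plate markers summed to 85.7 to 111 CPM at SRM_IC50 and 291 to 369 at SRM_IC25, with 3 of 4 tested lower, and 4 of 8 mesenchyme and 4 of 6 neuroectoderm markers were lower. Over all genes 13.7% were higher and 13.2% lower between these doses. At FPM_IC50, 9 of 10 pluripotency markers were lower than at SRM_IC50, at 1350 to 1670 CPM against 2660 to 3190. All 10 trophoblast and amnion markers were higher there, at 1270 to 1880 CPM against 315 to 341, and 4 of 4 tested cardiac and lateral plate markers were higher, at 267 to 407 CPM against 85.7 to 111. The other lists were mixed. Of 8 tested osteoblast markers 3 were higher and 4 lower, of 8 mesenchyme markers 4 and 2, and of 6 neuroectoderm markers 4 and 1. Over all genes 23.2% were higher and 16.2% lower in this comparison. At SRM_IC50, where H2AC25 was lower than in UNT, 7 of 10 pluripotency markers were higher and all 10 trophoblast and amnion markers lower than in UNT. Of 8 tested osteoblast markers 2 were higher and 2 lower there, and of 8 mesenchyme markers 1 and 3. Lower too were 4 of 6 neuroectoderm and 4 of 4 tested cardiac and lateral plate markers. The shares over all genes were 7.96% higher and 9.59% lower. At FPM_IC25, 6 of 10 pluripotency, 5 of 6 neuroectoderm and 1 of 8 tested osteoblast markers were lower than in UNT. Of 8 mesenchyme markers 4 were higher, and the other lists gave no call. Over all genes 10.7% were higher and 3.51% lower. At FPM_IC50, 3 of 10 pluripotency markers were lower and 4 of 10 trophoblast and amnion markers higher than in UNT. No other marker was called there, where 10.8% of all genes were higher and 2.77% lower. In bulk RNA, fewer cells of a kind and less RNA per cell cannot be told apart, and the part of these shifts in the histone values was not tested.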

How the data were processed

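Gene-level RNA-seq was measured in 15 libraries. The authors deposited whole-number read counts per gene and a table of FPKM values, which equal the count divided by deposited gene length and library total. Per the submitters' processing notes, reads were checked with FastQC 0.11.7, aligned to GRCh38 with HISAT2 2.2.1 and SAMtools 1.10, and counted with featureCounts from Subread; DESeq2 was also used. The sources used here do not give the annotation release, the strand setting or the handling of reads with several positions. Counts of identical gene copies and of overlapping genes are therefore uncertain.

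Members were found by approved symbol (65) or older name (4); 19 pseudogenes, H3-4 and HIST2H3PS2 were left out. Members, lists, the rule for naming genes and the tests were chosen with earlier results of these data known. Coordinates (1-based, GRCh38) came from GENCODE 29, whose lengths equalled the deposited ones for 66 of 69 members, and promoters from RefSeq (GRCh38.p14). The naming rule took the 3 members of each class highest in UNT, and called members of largest fold with a mean of at least 1 CPM: up to 5 each way against UNT and up to 3 each way otherwise. From other lists it took up to 3 called genes per comparison and 10 genes whatever their p.

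The counts went into edgeR 4.0.16 under R 4.3.3 (TMM, filterByExpr, robust quasi-likelihood fit of 5 group means to all 15 libraries, Benjamini-Hochberg over 19012 genes, threshold 0.05). Each adjusted p is from this test unless another is named; CPM are TMM-scaled. On simulated counts for FPM_IC25 against UNT (19012 genes) it recovered 19 of 50 genes changed 1.5-fold, 45 of 50 changed 2.0-fold and 50 of 50 changed 4.0-fold, with 7 false calls. The changed genes were drawn at random from all genes above a floor of mean CPM. Recovery for histone genes of low count was therefore not measured. Replicate pairs differed beyond sampling noise (chi-square per degree of freedom of at least 4.88), so all libraries were kept. Floors cover counting error only, since without molecular identifiers PCR copies of a molecule count as separate reads. Libraries of the same number correlated at over 0.1 in all 3 pairs, the mark taken for pairing, between the FPM doses only (r = 0.182 to 0.261), where a block by number changed no count of calls.

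Alternatives were DESeq2 1.42.0, its size factors in edgeR, TMM restricted to genes lacking a neighbour on the other strand within 5 kb, no expression filter, a replicate block, a GC offset with and without the block, the same centred on 0 in each library, limma-trend (limma 3.58.1) on log2(FPKM + 1) or log2(FPKM + 0.1) for genes at FPKM of at least 1 in 3 libraries, the same without that filter, and fits leaving out each library, the other particle's 6 libraries, or replicate 3 of every group; the last and the centred offset were added after seeing the data.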

Additional observations from a re-analysis of the deposited data

Results flagged for a closer look

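Members that differed between groups exposed in different ways, by the edgeR test of that difference, are listed with their log2 fold changes. Between the particles at the higher inhibitory level (FPM_IC50 over SRM_IC50), H4C9 differed by 1.07, H2AC25 by 0.87, H2BC21 by 0.65 and H2AC11 by -0.81. Between the SRM doses (SRM_IC50 over SRM_IC25), H3C2 differed by -2.59, H1-2 by -1.0, H2BC21 by -0.88, H2BC5 by -0.85, H2AC25 by -0.68, H2BC12 by -0.53 and H2BC15 by 0.86. H2AC25 and H2BC21 appear in both, which share the SRM_IC50 libraries.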

How the results depend on the processing

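H4C9 stayed higher at both FPM doses than in UNT under each of the 20 alternatives run, with log2 fold changes of 0.82 to 2.22 at FPM_IC25 and 0.72 to 2.00 at FPM_IC50. All of these alternatives rest on the deposited counts, so none could take minus-strand reads out of H4C9. No named gene with a call changed sign in any alternative. Among those without one, MKI67, NPAT and SLBP changed sign between the SRM doses in 4, 3 and 5 alternatives. Of 328 alternative values for 17 member results, 253 kept direction and side of the threshold, 73 lost the call and 2 gained one. Counts of called members moved by over 1.5 times as follows, and the cause was not tested. The share of all genes called under each alternative is not given here, so these counts have no background beside them.

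With the GC offset, 4 members were called at FPM_IC25 (main 1) and 4 at FPM_IC50 (main 2) against UNT, 3 between the SRM doses (main 7) and 16 between the particles at the lower level (main 0); with the GC offset and replicate block these were 10, 11, 6 and 20, and 10 between the particles at the higher level (main 4). This offset moved the median of all genes to between -0.31 and -0.38 in the 4 comparisons of FPM with UNT or SRM. Centred on 0 in each library it left medians of 0.01 to 0.04 there, and the counts were 1 and 2 for FPM against UNT, 3 between the SRM doses, and 0 and 5 between the particles at the lower and higher level; with the block as well, 4 were called between the particles at the lower level. Without an expression filter, which tested 65 members, the counts were 5 at FPM_IC50, 2 at SRM_IC25 (main 0) and 2 at SRM_IC50 (main 1) against UNT, 16 between the SRM doses and 13 between the particles at the lower level. With the replicate block alone they were 2 at SRM_IC25 against UNT, 12 between the SRM doses, and 9 and 7 between the particles at the lower and higher level. In none of those 4 comparisons did all 3 same-numbered pairs correlate at over 0.1: the correlations ran from -0.013 to 0.286 (UNT and SRM_IC25), -0.079 to 0.348 (SRM doses), -0.133 to 0.184 (particles, lower level) and 0.054 to 0.29 (particles, higher level). The pairs numbered 3 correlated at 0.224, 0.28, 0.184 and 0.29, in that order. The labels do not state that the numbers mark a shared culture or day. Whether they do was not tested beyond these correlations. On FPKM with limma-trend, FPM_IC50 against UNT gave 1 with either pseudocount, and the particles at the lower level gave 1 with log2(FPKM + 1); without the low-value filter the counts were 0 at SRM_IC50 against UNT, 4 between the SRM doses, and 1 and 7 between the particles. Without the 6 FPM libraries, 0 were called at SRM_IC50 against UNT and 4 between the SRM doses. Without replicate 3 of every group, 1 was called at FPM_IC50 against UNT, 4 between the SRM doses, and 2 and 1 between the particles at the lower and higher level.

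Leaving out 1 library at a time gave 1 to 1 called at FPM_IC25, 1 to 2 at FPM_IC50, 0 to 1 at SRM_IC25 and 0 to 1 at SRM_IC50 against UNT, 0 to 0 between the FPM doses, 1 to 14 between the SRM doses, and 0 to 6 and 1 to 6 between the particles at the lower and higher level. For the 39 untested members depth is 1 limit: the library with the fewest counts (9.34 M) gives 3 counts at 0.309 CPM.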

Other observations

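The 21 histone names left out of the comparisons, 19 pseudogenes, H3-4 and HIST2H3PS2, summed to 5.56, 5.06 and 4.22 CPM at FPM_IC25 and 5.55, 5.01 and 4.80 at FPM_IC50. They summed to 4.62, 3.10 and 3.07 CPM at SRM_IC25 and 3.46, 3.77 and 3.87 at SRM_IC50, against 3.08, 3.70 and 2.2 in UNT. All 6 FPM libraries lay above the 3 controls, a difference that was not tested, and H3-4 and HIST2H3PS2 themselves were at 0 in every library.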
